A study of Homo sapiens with 15 samples.

Results

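Aminoacyl-tRNA synthetases were followed in RNA sequencing of MDA-MB231, an established human triple-negative breast cancer cell line. Members were chosen by gene symbol alone: the synthetase of each amino acid, its mitochondrial counterpart, and AIMP1 and AIMP2, scaffold proteins of the multisynthetase complex. The rule found 39 genes among 60651 in the depletion dataset and 38 among 23792 in the overexpression dataset, where VARS2 was not analysed here. By textbook knowledge of where each enzyme works, the 39 fell into 18 cytosolic genes, GARS1 and KARS1, which serve the cytosol and the mitochondrion from 1 gene each, 17 mitochondrial genes and the 2 scaffolds. The depletion dataset held 3 libraries each of CTRL, whose genotype the labels give as WT, and of SG1 and SG3, both labelled as KIF20A knockdown. In the overexpression dataset, 3 libraries of EV (genotype WT) stood against 3 labelled KIF20A_OE (genotype KIF20A overexpression). KIF20A is a mitotic kinesin needed to complete cell division. What the names SG1 and SG3 stand for, whether the cells were clones, and whether replicates were separate cultures is not given in the labels, so p-values measure the spread between these libraries, which may be technical.

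Aminoacyl-tRNA synthetases join each amino acid to its matching tRNA, the step that makes the genetic code readable at the ribosome. Mitochondria translate their own few mRNAs and import a separate set of synthetases, encoded in the nucleus, for that purpose. In the cytosol several synthetases sit in one large complex held together by AIMP scaffolds, and uncharged tRNA is sensed by the kinase GCN2 (EIF2AK4), which leads to translation of the transcription factor ATF4. Genes of cytosolic synthetases are known among the targets of ATF4, together with genes of amino acid synthesis and uptake.

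The depletion libraries held 40.9 to 51 M counts each, with M for 1000000, and the overexpression libraries 16 to 22.2 M fragments. KIF20A read 154, 171 and 160 CPM (counts per 1000000) in CTRL, 123, 147 and 91.5 CPM in SG1, and 86.3, 60.8 and 79.1 CPM in SG3. Its log2 fold change missed the threshold in SG1 (-0.42 ± 0.18 SE, edgeR quasi-likelihood adjusted p = 0.913) and in SG3 (-1.10 ± 0.18, adjusted p = 0.33), although neither group overlapped CTRL. The libraries labelled KIF20A_OE had 1348, 269 and 896 FPM (fragments per 1000000) of KIF20A, against 101, 143 and 124 FPM in EV. On the first principal component of the depletion libraries, CTRL replicate 3 (24.71) and SG3 replicate 1 (32.1) lay beside SG1 (16.61 to 22.02) and apart from the other CTRL (-27.42 and -21.3) and SG3 libraries (-33.36 and -29.99). In the libraries labelled KIF20A_OE the markers of the line went against the label: AXL was at 0.750 to 0.811 FPM (EV 811 to 1107) and CD44 at 0.125 to 1.23 FPM (EV 523 to 788), and EGFR, CAV1 and VIM were lower as well, so that all 5 markers set as present were called lower by limma. In that comparison KIF20A and this difference in cell identity cannot be told apart. The depletion libraries and EV expressed all 5 of these markers.

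The median level per length was higher for cytosolic than for mitochondrial synthetases in every group, with ranges that overlapped. Levels here are CPM or FPM divided by the summed exon length in kb of GENCODE 29. That length joins the exons of all annotated transcripts of a gene, for example 10037 bases in CARS1 and 3369 in FARSB. Orders and ratios between genes therefore depend on the annotation as well as on the reads. The median cytosolic level was 42.1 CPM per kb in CTRL, 37.9 in SG1 and 38.5 in SG3. Mitochondrial medians were 6.13, 6.22 and 6.38 CPM per kb in the same order. For the overexpression dataset, scaled separately, the cytosolic median was 32.9 FPM per kb in EV and 43.4 in the libraries labelled KIF20A_OE, and the mitochondrial median was 5.24 and 13.0.

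TARS1, the threonyl enzyme, headed the order in CTRL at 97.5 ± 17.1 CPM per kb (SD, n = 3), followed by GARS1 at 86.4 ± 23.0, the glycyl enzyme of both compartments. IARS1, the isoleucyl enzyme of the multisynthetase complex, came next at 70.0 ± 14.4 CPM per kb and its mitochondrial counterpart IARS2 at 69.0 ± 16.1. Each of these 4 overlapped its neighbour in the order within their SDs. CARS1, the cysteinyl enzyme, was the lowest of the cytosolic genes per length at 10.4 ± 1.81 CPM per kb, beside HARS1, the histidyl enzyme, at 10.6 ± 1.48. Before division by length, CARS1 had 4159 to 6186 counts per CTRL library and FARSB 2835 to 4453, so its place rests on its long annotation. IARS2 was the one mitochondrial gene within the cytosolic range in CTRL: the other 16 lay at 8.82 CPM per kb or less, from TARS2 (8.82 ± 0.642) down. At the bottom stood SARS2, the mitochondrial seryl enzyme, with 29 to 91 counts per library, and VARS2, the mitochondrial valyl enzyme, with 0 to 2 counts and 4 in all. The floor of 3 counts is 0.0588 to 0.0734 CPM in these libraries. VARS2 did not pass the filter on low counts in the depletion dataset, and it was not among the 38 members of the overexpression dataset. In each dataset 38 members were tested. The annotation shares 46.2% of the exon bases of SARS2 with AC011455.2 on the same strand and 22% of those of VARS2 with GTF2H4. The rule for such reads was not given in the sources used here. Values of SARS2 and VARS2 are uncertain to that extent, and the low VARS2 count is a statement about reads assigned to it.

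**Figure D1:**
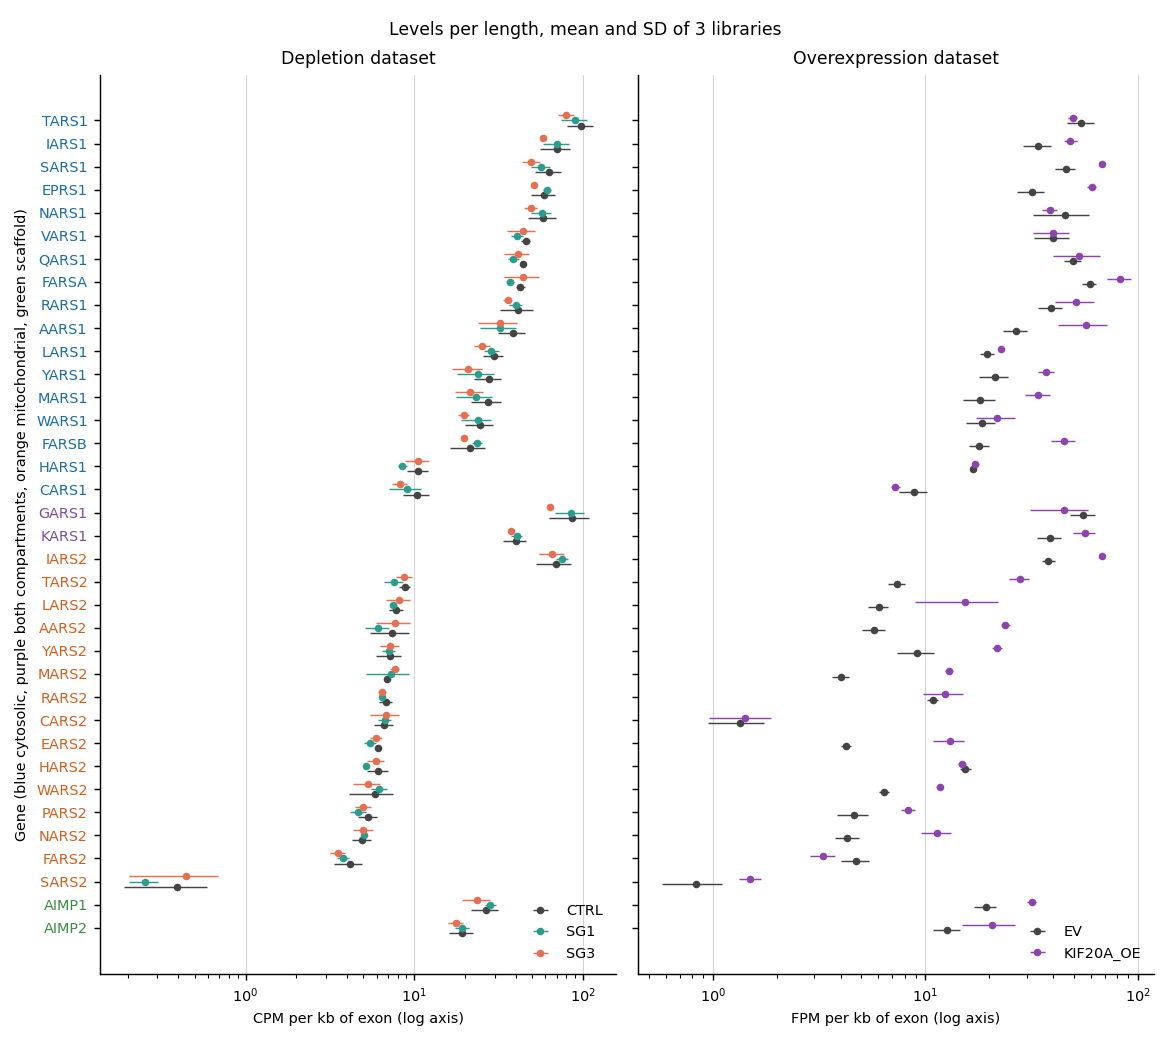
Level of 36 members per kb of exon on a log axis, as the mean and SD of 3 libraries per group, with CPM per kb in the depletion dataset (left) and FPM per kb in the overexpression dataset (right). Cytosolic genes range from 10.4 to 97.5 CPM per kb in CTRL, and IARS2 at 69.0 is the mitochondrial gene that lies among them.

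For 16 pairs of a cytosolic gene and the mitochondrial gene for the same amino acid, the level per kb was compared within each library. EPRS1, which charges both glutamate and proline, was set against EARS2 and against PARS2. The median pair was 4.62, 5.68 and 6.92 times as high in the cytosolic form in CTRL, 5.77, 5.56 and 5.77 times in SG1, and 5.00, 4.68 and 5.10 times in SG3. The cytosolic form was higher in 15 or 16 of the 16 pairs in every one of the 15 libraries. Where it was 15, the exception was IARS1 with IARS2. Widest was SARS1 over SARS2, with a mean log2 ratio of 7.43 ± 0.95 in CTRL (SD, n = 3), resting on the low SARS2 counts. HARS1 over HARS2 was among the narrowest at 0.80 ± 0.08. Between CTRL and SG3 the mean log2 ratio was lower in 14 of 16 pairs, with 0 pairs free of overlap between the libraries, so the shift was within the spread of the libraries in each pair.

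**Figure D2:**
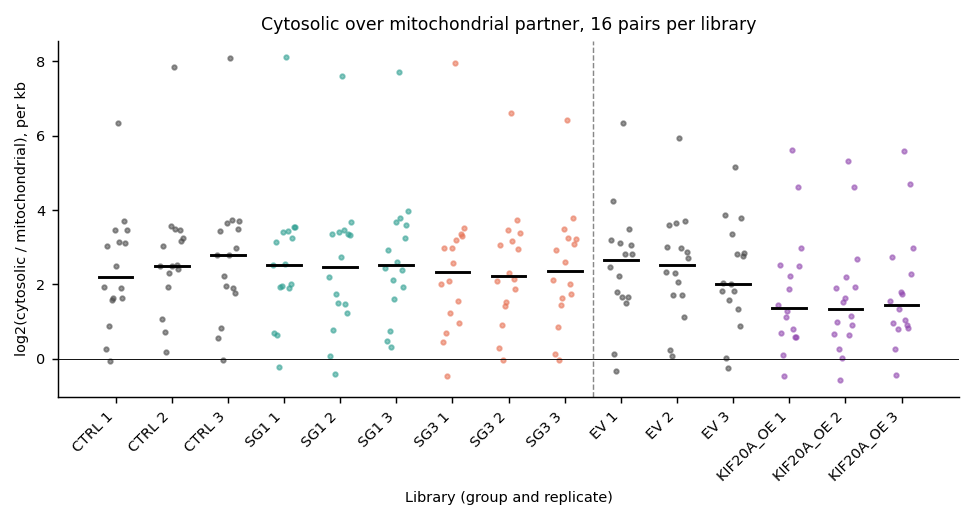
Log2 of the cytosolic over the mitochondrial level per kb for 16 pairs (points) in each of the 15 libraries, with the median as a black bar and a dashed line between the separately scaled datasets. Medians lie at 2.01 to 2.79 in all libraries except those labelled KIF20A_OE, where they are 1.33 to 1.44.

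The promoters were searched for TGATGNAA, a sequence known to be bound by ATF4 with its CEBP partners. The shares below describe the windows, and no test between groups of members was made. Both strands were read of the RefSeq window from 250 bases before to 50 bases after each annotated start (GRCh38.p14), which 32 of the 39 members had, in 44 windows. A gene counted as holding the motif when any of its windows did. Of all 27305 genes with such a window, 4.457% held it. Among members it was present in 6 of 14 cytosolic genes (42.86%), in GARS1 of the 2 genes that serve both compartments, in 1 of 14 mitochondrial genes (7.143%), namely YARS2, and in 0 of the 2 scaffolds. For comparison, the E-box CACGTG was in 1 of 14 cytosolic and 3 of 14 mitochondrial promoters (8.775% of all genes). The matches of both motifs did not overlap. A match describes the letters in the window and is not evidence that a factor binds there. LARS1, VARS1, YARS1, AARS2 and VARS2 were among the members with no window.

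The stretches below show the match in each of the 7 cytosolic or both-compartment genes, and in YARS2, because the comparison of SG3 with CTRL returns to these genes. Each is written 5′ to 3′ on the strand of the gene, in lower case with the match in capitals, and all but those of NARS1 and YARS2 have the motif on the opposite strand. In TARS1, CARS1, MARS1, IARS1 and NARS1 the match begins within 14 bases of the annotated start.
TARS1: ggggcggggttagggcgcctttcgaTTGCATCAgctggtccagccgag
CARS1: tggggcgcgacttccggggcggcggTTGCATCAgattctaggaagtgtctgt
MARS1: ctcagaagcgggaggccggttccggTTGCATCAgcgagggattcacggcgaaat
IARS1: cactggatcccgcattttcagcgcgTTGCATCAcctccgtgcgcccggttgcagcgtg
NARS1: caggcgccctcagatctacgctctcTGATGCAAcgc
GARS1: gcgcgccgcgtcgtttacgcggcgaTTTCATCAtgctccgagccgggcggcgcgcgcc
AARS1: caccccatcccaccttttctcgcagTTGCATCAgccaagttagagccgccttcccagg
YARS2: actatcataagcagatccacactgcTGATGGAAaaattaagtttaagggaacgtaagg
They lie at chr5:33440942-33440989 (TARS1, plus strand), chr11:3057399-3057450 (CARS1, minus), chr12:57488039-57488092 (MARS1, plus), chr9:92293678-92293735 (IARS1, minus), chr18:57621812-57621847 (NARS1, minus), chr7:30594820-30594877 (GARS1, plus), chr16:70289661-70289718 (AARS1, minus) and chr12:32756062-32756119 (YARS2, minus). The GARS1 and YARS2 matches differ from the other 6 at the base the motif leaves free.

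Against CTRL, the SG1 libraries showed no synthetase that passed the test, and 25 of 38 members had a negative log2 fold change. Of the 18 cytosolic genes 14 had a negative log2 fold change (median -0.13), where 50.3% of all 16786 genes tested were negative (median -0.00). Of the 16 mitochondrial genes tested 10 were negative (median -0.07), and AIMP1 and AIMP2 were at 0.09 and 0.01. edgeR's quasi-likelihood test called 0 of 38 members at an adjusted p under 0.05, the same share as among all genes (0%), and 0 members had an unadjusted p under 0.05 in edgeR (4.59% of all genes), DESeq2 or limma-voom. Across all members the smallest edgeR adjusted p was 0.913. In bulk RNA, fewer cells of a type and less RNA per cell cannot be told apart.

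HARS1, the cytosolic histidyl enzyme (ENSG00000170445.16, chr5:140673904-140691862, minus strand, GRCh38), had the lowest p. It read 93.8, 85.2 and 70.8 CPM in CTRL and 63.3, 66.5 and 70.9 CPM in SG1. The highest SG1 library was level with the lowest CTRL library, so the groups overlapped. The log2 fold change was -0.31 ± 0.15 SE (edgeR unadjusted p = 0.0568, adjusted p = 0.913). HARS2, the mitochondrial histidyl enzyme, lies head to head with it on the plus strand (chr5:140691426-140699318) and overlaps it, with 8.4% of the exon bases of HARS1 and 11.7% of those of HARS2 shared with genes on the opposite strand. It read 24.4, 24.8 and 19.1 CPM in CTRL and 19.3, 18.5 and 20.2 CPM in SG1, a log2 fold change of -0.24 ± 0.16. Both genes were low in CTRL replicate 3, and without strand in the counting, reads from the overlap cannot be told apart.

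QARS1, the glutaminyl enzyme, and FARSA, the alpha subunit of the phenylalanyl enzyme, were the cytosolic members whose SG1 libraries all lay below CTRL. QARS1 had 208, 217 and 198 CPM in CTRL against 189, 193 and 166 CPM in SG1 (log2 fold change -0.19 ± 0.15). FARSA had 109, 106 and 96.3 CPM in CTRL against 89.2, 85.8 and 95.4 CPM in SG1 (-0.21 ± 0.16). Lower without overlap held for 7.21% of all genes, against 2 of 38 members. Higher without overlap held for 1 of 38 members, against 4.96% of all genes.

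AARS1, the alanyl enzyme, had a wider spread, with 150, 210 and 160 CPM in CTRL and 157, 105 and 173 CPM in SG1 (log2 fold change -0.26 ± 0.21). A single library, SG1 replicate 2, lay below all CTRL libraries. TARS2, the mitochondrial threonyl enzyme, was at 36.2, 38.5 and 33.2 CPM in CTRL and 35.3, 27.0 and 30.8 CPM in SG1 (-0.21 ± 0.15). AIMP1 was at 82.8, 75.8 and 107 CPM in CTRL and 86.4, 96.9 and 99.4 CPM in SG1 (0.09 ± 0.17), and its direction turned without CTRL replicate 2. Both TARS2 and AIMP1 overlapped between the groups. The cytosolic median was -0.02 without SG1 replicate 2, -0.22 without SG1 replicate 3, and -0.06 without CTRL replicate 2 or CTRL replicate 3.

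In SG3 nearly all cytosolic synthetases had a negative log2 fold change, and no member passed the test. Of the 18 cytosolic genes 17 were negative (median -0.24), where 53.3% of all genes were negative (median -0.01). The mitochondrial genes were split, 8 negative and 8 positive (median -0.00). The 10 members of the rule counted as subunits of the multisynthetase complex, AIMP1 and AIMP2 included, were all negative (median -0.18). In SG1 against CTRL, 4 of these 10 were negative (median 0.01). By enzyme class, all 10 cytosolic class I genes were negative (median -0.25), as were 7 of 8 class II genes (median -0.18), FARSA being the exception at 0.06. EPRS1, which charges both glutamate and proline, was counted in class I only. edgeR called 0 of 38 members (0% of all genes), with 1 member at an unadjusted p under 0.05 (1.19% of all genes), as DESeq2 also found, and 0 in limma-voom. The smallest edgeR adjusted p over the members rounded to 1.

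GARS1 (ENSG00000106105.15, chr7:30594681-30634033, plus strand) was that member. It read 252, 388 and 436 CPM in CTRL and 265, 271 and 263 CPM in SG3. The SG3 libraries stood close together, above CTRL replicate 1 and well below the other CTRL libraries. Its log2 fold change was -0.43 ± 0.19 SE (edgeR unadjusted p = 0.0405), -0.27 without CTRL replicate 3 and -0.63 without CTRL replicate 1. WARS1, the tryptophanyl enzyme, showed the same arrangement at lower contrast, with 124, 164 and 182 CPM in CTRL and 117, 123 and 135 CPM in SG3 (-0.33 ± 0.17). Its lowest CTRL library lay inside the SG3 range.

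SARS1, the seryl enzyme, had 193, 257 and 273 CPM in CTRL and 164, 198 and 209 CPM in SG3 (log2 fold change -0.34 ± 0.16). YARS1, the tyrosyl enzyme, had 182, 262 and 236 CPM in CTRL and 132, 191 and 192 CPM in SG3 (-0.40 ± 0.20). In both, CTRL replicate 1 fell within the SG3 range and SG3 replicate 1 was the lowest library. CARS1 (chr11:3000922-3057613, minus strand) was the cytosolic member free of overlap, with 91.7, 125 and 96.2 CPM in CTRL and 72.4, 88.3 and 86.9 CPM in SG3 (-0.34 ± 0.18), as were 2.38% of all genes in that direction. Its edgeR unadjusted p was 0.0742.

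Mitochondrial members lay closer to CTRL. FARS2, the mitochondrial phenylalanyl enzyme, was at 16.7, 19.3 and 24.1 CPM in CTRL and 15.2, 18.3 and 17.7 CPM in SG3 (log2 fold change -0.23 ± 0.17). MARS2, the mitochondrial methionyl enzyme, was at 21.1, 19.8 and 21.4 CPM in CTRL and 21.8, 24.7 and 23.1 CPM in SG3 (0.16 ± 0.18), higher in every SG3 library, as for 2.28% of all genes. FARS2 overlapped CTRL.

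Of the 8 genes with the printed promoter match 7 were negative in SG3, and YARS2 was at 0.01. The 7 cytosolic or both-compartment members with TGATGNAA ran from -0.43 to -0.25 (median -0.29). The 9 with a window but without it ran from -0.34 to 0.06 (median -0.11), with 8 negative, so the ranges overlapped. YARS1, at -0.40, had no window and is in neither group. In SG1 the medians of the same genes were -0.11 and -0.05. Both comparisons share the CTRL libraries, and with 0 members called these values describe the genes without a test between them.

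**Figure D3:**
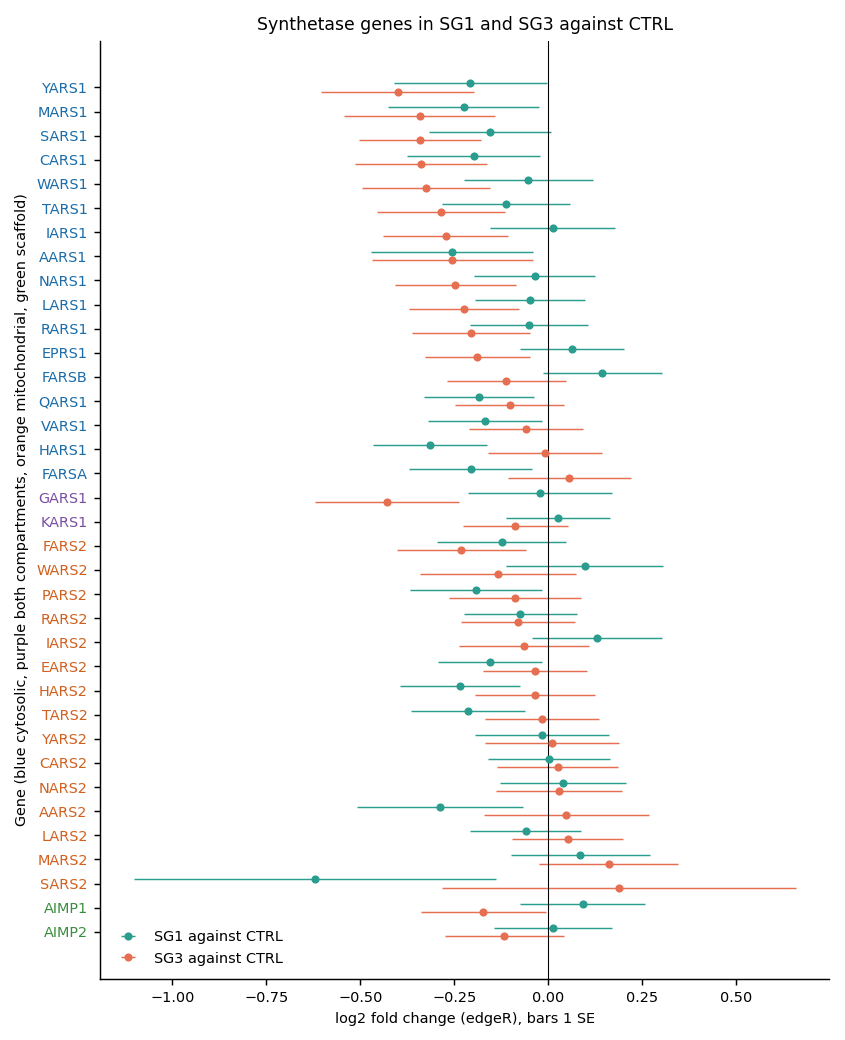
Log2 fold change of 36 members in SG1 (green) and SG3 (orange) against the shared CTRL libraries, with 1 SE from edgeR, grouped by compartment. In SG3 the cytosolic genes lie left of 0 except FARSA at 0.06, with GARS1 lowest at -0.43, while the mitochondrial genes lie on both sides.

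The cytosolic values were also taken library by library. A score per library was taken as the median over the genes of log2(CPM + 1) minus the CTRL mean. Cytosolic scores were -0.20, 0.04 and 0.19 in CTRL, -0.09, -0.27 and 0.06 in SG1, and -0.40, -0.21 and -0.17 in SG3. CTRL replicate 1 fell between the SG3 libraries, so the groups overlapped. Mitochondrial scores stayed between -0.17 and 0.03 in all 9 libraries. Leaving out CTRL replicate 3 and SG3 replicate 1, the libraries apart on the first component, brought the SG3 cytosolic median to -0.07, with 13 of 18 genes negative, and leaving out CTRL replicate 3 alone brought it to -0.12.

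Genes of the amino acid response, a list of 31 ATF4-linked genes of which 30 were tested, had their lowest scores in the same libraries as the cytosolic synthetases, SG3 replicate 1 and SG1 replicate 2. Their scores were -0.10, 0.17 and -0.06 in CTRL, -0.06, -0.55 and 0.04 in SG1, and -0.61, -0.18 and -0.25 in SG3. In SG1 25 of 30 were negative (median -0.22), and in SG3 28 of 30 (median -0.35), where 50.3% and 53.3% of all genes were negative. ATF4 itself read 207, 269 and 207 CPM in CTRL, 232, 133 and 219 CPM in SG1, and 132, 182 and 171 CPM in SG3, with an SG3 log2 fold change of -0.49 ± 0.20 (edgeR unadjusted p = 0.0272, adjusted p rounding to 1). CEBPG, a partner of ATF4, read 44.6, 55.5 and 60.6 CPM in CTRL and 42.4, 39.4 and 41.3 CPM in SG3 (-0.38 ± 0.15). SG1 replicate 2 and SG3 replicate 1 were the lowest libraries for ATF4, as they were for the cytosolic score. edgeR called 0 of the 30 (0% of all genes), with 5 at an unadjusted p under 0.05 in SG3 (1.19% of all genes) and 1 in SG1 (4.59% of all genes). Mitochondrially encoded mRNAs made up 2.55%, 1.14% and 0.962% of counts in CTRL, 2.19%, 1.47% and 3.41% in SG1, and 2.03%, 1.19% and 0.975% in SG3. Their part, and that of the amino acid response, in the synthetase values was not tested.

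**Figure D4:**
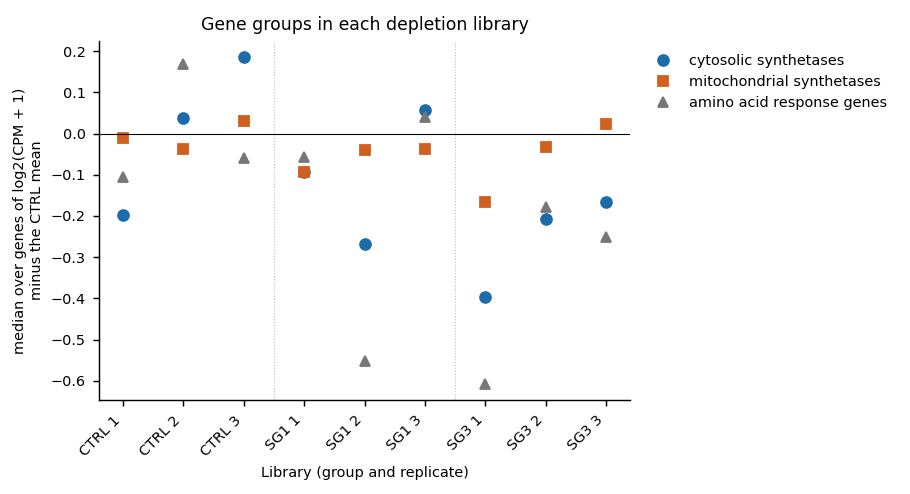
Median over genes of log2(CPM + 1) minus the CTRL mean, for cytosolic synthetases (circles), mitochondrial synthetases (squares) and amino acid response genes (triangles) in each of the 9 depletion libraries. Cytosolic scores span -0.20 to 0.19 within CTRL alone, and the lowest values of both the cytosolic and the response lists are in SG3 replicate 1.

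Set directly against each other, SG1 and SG3 differed in no synthetase by the test. Of the cytosolic genes 13 of 18 were positive (median log2 difference 0.17), against 51.9% of all genes (median 0.01), with 6 of 16 mitochondrial genes positive (median -0.05). edgeR called 0 of 38 members (0% of all genes), with 0 at an unadjusted p under 0.05 in edgeR (4.74% of all genes), DESeq2 and limma-voom. GARS1, at 359, 282 and 419 CPM in SG1 against 265, 271 and 263 CPM in SG3, was higher in every SG1 library (0.41 ± 0.19, edgeR unadjusted p = 0.0504, adjusted p = 0.861). Also free of overlap were the complex members EPRS1 (325, 326 and 356 CPM against 290, 270 and 286) and IARS1 (487, 453 and 626 CPM against 420, 430 and 436).

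FARSB, the beta subunit of the phenylalanyl enzyme, was likewise higher in each SG1 library, at 75.6, 77.3 and 86.1 CPM against 67.0, 65.9 and 67.3 in SG3. These 4 of 38 members compare with 6.26% of all genes, and 0 members were lower without overlap (4.55% of all genes). HARS1 (68.8, 84.6 and 95.0 CPM in SG3), AARS2 (26.2, 21.8 and 30.2 CPM in SG1, 24.5, 39.2 and 35.0 in SG3) and TARS2 (31.3, 39.1 and 36.3 CPM in SG3) lay the other way, with log2 differences of -0.31, -0.34 and -0.20 and overlapping libraries. SARS2 had -0.81 ± 0.48 on 29 to 85 counts per library. The cytosolic median was 0.06 without SG3 replicate 1 and 0.08 without SG1 replicate 3.

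Leaving out CTRL replicate 3 and SG3 replicate 1 together turned some of these members into calls. With both absent, edgeR called HARS1 lower in SG1 against CTRL (log2 fold change -0.43, adjusted p = 0.0416). Against SG3, HARS1 (-0.45, edgeR adjusted p = 0.0235), AARS2 (-0.54, adjusted p = 0.0432) and FARSA (-0.48, adjusted p = 0.0127) were called lower and AIMP1 higher (0.39, adjusted p = 0.0446) in SG1. That setting was chosen after seeing the data and leaves 2 libraries in each of CTRL and SG3. Over all genes it gave 225 higher and 540 lower calls in SG1 against CTRL, and 501 and 1027 in SG1 against SG3. For scale, the fit of all 9 libraries tested 16786 genes, 38 of them members. Calls in that setting were thus spread over many genes and were not particular to the synthetases.

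With SG1 and SG3 averaged and set against CTRL, 16 of 18 cytosolic genes were negative (median -0.14) and 11 of 16 mitochondrial genes (median -0.05), where 53.1% of all genes were negative. edgeR called 0 of 38 members (0% of all genes), 0 of them at an unadjusted p under 0.05 (1.76% of all genes), as in DESeq2 and limma-voom. SARS1 (-0.25 ± 0.14), CARS1 (-0.27 ± 0.15), YARS1 (-0.30 ± 0.17) and MARS1, the methionyl enzyme (-0.28 ± 0.17), had the lowest cytosolic p, between 0.0944 and 0.121 unadjusted in edgeR. MARS1 read 152, 230 and 194 CPM in CTRL, 160, 126 and 206 CPM in SG1, and 119, 167 and 168 CPM in SG3, so that all groups overlapped. Among mitochondrial genes FARS2 was at -0.18 ± 0.15 and HARS2 at -0.14 ± 0.14, and GARS1 was at -0.23 ± 0.16. Single CTRL libraries moved these values: without CTRL replicate 2, CARS1 was at -0.09, MARS1 at -0.11 and YARS1 at -0.16, without CTRL replicate 3, SARS1 was at -0.16, FARS2 at -0.04 and GARS1 at -0.08, and without CTRL replicate 1 all 6 were lower (-0.30 to -0.45). HARS2 ran from -0.26 without CTRL replicate 3 to -0.05 without CTRL replicate 2. The cytosolic median was -0.26 without CTRL replicate 1 and -0.11 without CTRL replicate 2.

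In the libraries labelled KIF20A_OE, most mitochondrial synthetases were higher than in EV while cytosolic synthetases were divided. Of 38 members limma called 23 higher and 1 lower, against 46.2% higher and 23.4% lower among all 15265 genes (69.6% called). Without overlap between libraries, 23 members were higher and 1 lower, against 48.9% and 25.2% of all genes. The median log2 fold change of all genes was 0.37 on the log2(FPM + 1) scale, so values are also given relative to it. Mitochondrial genes had a median of 1.04, which was 0.66 above all genes, with 12 of 16 called higher and FARS2 called lower. Cytosolic genes had a median of 0.31, which was -0.06 relative to all genes, with 8 of 18 called higher and 0 lower. For genes near 1 FPM this scale makes a change look smaller than it is. As stated above, the libraries labelled KIF20A_OE also were low in the line's markers.

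AARS2, the mitochondrial alanyl enzyme, rose from 21.4, 25.2 and 27.6 FPM to 102, 107 and 97.1 FPM (log2 fold change 2.01 ± 0.14 SE, limma adjusted p = 3.98e-06).

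TARS2 rose from 31.3, 31.9 and 26.9 FPM to 112, 127 and 102 FPM (log2 fold change 1.88 ± 0.14). MARS2 rose from 11, 13.2 and 11.8 FPM to 38.3, 41.2 and 37.7 FPM (1.62 ± 0.15), and EARS2, the mitochondrial glutamyl enzyme, from 24.9, 25.1 and 22.8 FPM to 62.5, 87.1 and 74.3 FPM (1.57 ± 0.15). None of these groups overlapped. NARS2, the asparaginyl enzyme, rose from 13.6, 15.3 and 11.8 FPM to 30.2, 41.9 and 35.4 FPM (1.34 ± 0.18).

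LARS2, the leucyl enzyme, was the most uneven of the mitochondrial rises, from 35.8, 43.7 and 43.9 FPM to 71.0, 155 and 88.9 FPM (log2 fold change 1.26 ± 0.26). Its second library labelled KIF20A_OE stood far above the others, and all lay above EV. YARS2, the tyrosyl enzyme, rose from 15.5, 23.3 and 20.4 FPM to 49.2, 46.8 and 44.4 FPM (1.22 ± 0.17). WARS2, the tryptophanyl enzyme, rose from 23.0, 25.3 and 25.2 FPM to 45.3, 46.6 and 43.3 FPM (0.85 ± 0.13).

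IARS2, the most abundant mitochondrial member per length, rose from 170, 156 and 148 FPM to 280, 279 and 291 FPM (log2 fold change 0.84 ± 0.11). PARS2, the prolyl enzyme, rose from 12.1, 11.6 and 8.76 FPM to 18.3, 21.1 and 19.1 FPM (0.81 ± 0.18), and SARS2 from 2, 2.46 and 3.65 FPM to 4.51, 5.5 and 4.55 FPM (0.68 ± 0.22). Both were free of overlap but lost their calls under TMM scaling (limma adjusted p = 0.0523 and 0.127). SARS2 also lost its call without EV replicate 1, EV replicate 2 or KIF20A_OE replicate 2 (adjusted p up to 0.0755).

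FARS2 (chr6:5261044-5829192, plus strand) went the other way, from 25.7, 23.7 and 19.0 FPM in EV to 14.3, 18.4 and 15.2 FPM. All its EV libraries lay above the others, narrowly, with a log2 fold change of -0.48 ± 0.18 (limma adjusted p = 0.0384). The call ended without EV replicate 1 or 2 or without KIF20A_OE replicate 1 or 3 (adjusted p 0.0928 to 0.118). With a replicate block the call ended as well (limma adjusted p = 0.0531). Under TMM scaling FARS2 kept its call, at -0.82 (limma adjusted p = 0.00456). HARS2, RARS2 and CARS2, the remaining mitochondrial genes, missed the threshold at -0.05, 0.17 and 0.07.

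Among cytosolic genes, FARSB rose most, from 60.4, 66.9 and 54.0 FPM to 135, 173 and 144 FPM (log2 fold change 1.30 ± 0.14, limma adjusted p = 6.05e-05). FARSA, its partner subunit, rose by a smaller step, from 145, 155 and 133 FPM to 176, 226 and 198 FPM (0.46 ± 0.13). AARS1 rose from 125, 133 and 103 FPM to 291, 179 and 296 FPM (1.05 ± 0.21). In each case the groups did not overlap, and the call of FARSA ended under TMM scaling (limma adjusted p = 0.522).

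EPRS1, the complex member for glutamate and proline, rose from 197, 175 and 147 FPM to 334, 314 and 346 FPM (log2 fold change 0.94 ± 0.13). MARS1 rose from 120, 152 and 110 FPM to 219, 275 and 223 FPM (0.91 ± 0.16), but 12.4% of its exon bases lie opposite other genes, ARHGAP9 and the stress gene DDIT3. YARS1 rose from 185, 195 and 143 FPM to 281, 333 and 300 FPM (0.81 ± 0.15). These 3, AARS1 and FARSB kept their calls under TMM scaling (limma adjusted p = 0.000541 to 0.0307).

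SARS1 rose from 191, 181 and 155 FPM to 264, 259 and 258 FPM (log2 fold change 0.57 ± 0.12), IARS1 from 241, 294 and 221 FPM to 360, 330 and 379 FPM (0.51 ± 0.14), and KARS1, of both compartments, from 150, 178 and 140 FPM to 214, 211 and 259 FPM (0.54 ± 0.14). All were free of overlap, and all lost the call under TMM scaling (limma adjusted p = 0.163, 0.369 and 0.279). The scaffold AIMP1 rose from 59.2, 60.4 and 72.8 FPM to 100, 110 and 106 FPM (0.72 ± 0.13), and kept its call under TMM scaling (limma adjusted p = 0.0262). AIMP2 rose from 23.1, 26.7 and 20.0 FPM to 26.0, 45.5 and 42.3 FPM (0.65 ± 0.23), with overlap, a call lost under TMM scaling (limma adjusted p = 0.278) and in 4 of 6 settings that left out a library, and 28.9% of its exon bases opposite EIF2AK1.

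The members that did not pass included TARS1 and GARS1, the highest per length in CTRL, and CARS1, the lowest cytosolic gene per length in EV. TARS1 read 309, 355 and 265 FPM in EV and 272, 277 and 297 FPM in the libraries labelled KIF20A_OE (log2 fold change -0.13 ± 0.13). GARS1 read 242, 253 and 195 FPM and then 122, 233 and 201 FPM (-0.35 ± 0.23). CARS1 read 98.1, 93.8 and 73.2 FPM and then 68.3, 73.8 and 75.2 FPM (-0.27 ± 0.14). All 3 overlapped between the groups.

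HARS1 and HARS2, the overlapping neighbours, differed little between these groups in FPM. HARS1 read 130, 135 and 131 FPM in EV and 131, 140 and 133 FPM in the libraries labelled KIF20A_OE, and HARS2 read 56.9, 54.6 and 61.4 FPM and then 58.0, 56.2 and 52.8 FPM. Their log2 fold changes were 0.03 ± 0.10 and -0.05 ± 0.12 (limma adjusted p = 0.803 and 0.727). Under TMM scaling both were called lower, at -0.32 and -0.40 (limma adjusted p = 0.0236 and 0.0135).

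The direction of part of the cytosolic genes depended on the scaling. TMM scaling moved the median of all genes from 0.37 to 0.05, the share of higher calls among all calls from 66.4% to 51.6%, and the count of members called from 23 higher and 1 lower to 16 higher and 8 lower. CARS1, GARS1, HARS1, HARS2, NARS1 and TARS1 were among those that joined FARS2 as lower. edgeR on the recovered fragments gave the same 8 genes lower and also 16 higher, with 52.1% of all calls higher. Under TMM scaling the mitochondrial median was 0.69 and the cytosolic median -0.05, 0.64 above and -0.09 relative to all genes, so the distance between the compartments was about as large as before.

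**Figure D5:**
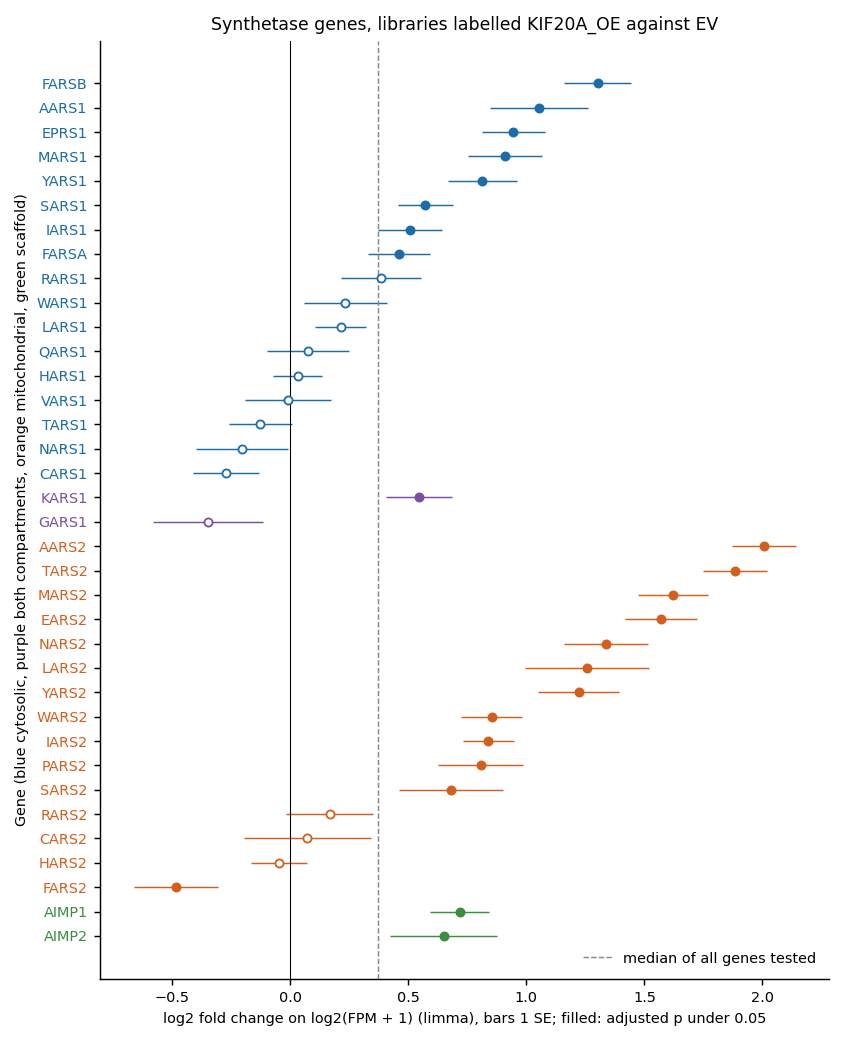
Log2 fold change on log2(FPM + 1) of 36 members in the libraries labelled KIF20A_OE against EV, with 1 SE from limma, filled where the adjusted p is under 0.05, and the median of all genes (0.37) as a dashed line. Most mitochondrial genes lie right of that line, with AARS2 at 2.01, and cytosolic genes lie on both sides of it, with those left of it called lower in part under TMM scaling.

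The ratio of cytosolic to mitochondrial form carries no scaling factor between libraries, and it was smaller in the libraries labelled KIF20A_OE. The median pair was 6.25, 5.72 and 4.03 times as high in the cytosolic form in EV and 2.59, 2.51 and 2.72 times in the libraries labelled KIF20A_OE. The mean log2 ratio was lower in 12 of 16 pairs, with 9 pairs lower and 1 higher free of overlap. TARS1 over TARS2 went from 2.87 ± 0.10 to 0.83 ± 0.21 (SD, n = 3 each). FARSA over FARS2 was the pair that was larger without overlap, from 3.66 ± 0.16 to 4.64 ± 0.05. HARS1 over HARS2 stayed near even, at 0.12 ± 0.11 and 0.20 ± 0.09.

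Among cytosolic and both-compartment genes, those with the printed promoter match had the lower median here too, without a test between them. The 7 genes with it had a median log2 fold change of -0.13 and ran from -0.35 (GARS1) to 1.05 (AARS1), with 4 negative. The 9 without it ran from 0.03 to 1.30 (median 0.46) with 0 negative, so the ranges overlapped. HARS1, QARS1 and WARS1 of these 9 turned negative under TMM scaling (-0.32, -0.28 and -0.12). Of 30 amino acid response genes limma called 19 higher and 4 lower (median 0.98), where 46.2% of all genes were called higher and 23.4% lower (median 0.37). Unlike in SG3, ATF4 itself was higher here (log2 fold change 1.38 ± 0.13, limma adjusted p = 2.57e-05), as was CEBPG (1.18 ± 0.14). The smallest p values in the list belonged to CBS, an enzyme of cysteine synthesis, at 0 FPM in each EV library and 88.1, 85.0 and 78.5 FPM in the libraries labelled KIF20A_OE, and STC2, a secreted glycoprotein, at 0.143 to 0.470 and 64.9 to 100 FPM. Whether these lists and the marker difference between the groups share a source was not tested.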

How the data were processed

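RNA sequencing of 15 libraries in 5 groups of 3 was used, with groups and replicate numbers from the sample titles. The authors deposited raw counts per gene for the depletion dataset, per the labels. The labels name the overexpression values FPKM. Yet every column the authors deposited sums to 1000000 in whole multiples of a fixed step (100% of values whole within 0.001 fragments), so they are FPM, the fragment form of CPM, without gene length. The test planned for normalized values was kept. The submitters' processing notes name STAR 2.7.3a and the build hg38, featureCounts of Subread 1.6.3, limma 3.50.3 and, for trimming, Trim Galore 0.6.4. Settings, annotation and strand rule were not given in the sources used here. Replicates differed by more than sampling noise. Floors cover counting error only.

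Counts were tested with edgeR 4.0.16 (quasi-likelihood, TMM, default expression filter, 16786 genes, 9 libraries in 1 fit) in R 4.3.3. FPM values were tested with limma 3.58.1 (trend, robust) on log2(FPM + 1) for the 15265 genes whose mean reached 1 FPM. Adjusted p-values are Benjamini-Hochberg values over all genes tested, threshold 0.05. Alternatives were DESeq2 1.42.0, limma-voom, other scalings, filters and pseudocounts, halved counts, a replicate block and each library left out. The scripts were tested on simulated data. Levels are CPM with TMM library sizes, or FPM. Coordinates and exon overlaps are from GENCODE 29 on GRCh38, which held 96.3% of the identifiers in the count table, and promoter windows are from RefSeq.

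Members and gene lists were chosen with earlier results of these data known. Named members were, per comparison, the 4 cytosolic, 3 mitochondrial and 1 other with the smallest unadjusted p, all called members, KIF20A, HARS1 with HARS2, the highest and lowest per length, and the 2 genes of smallest p from each other list named. Some genes count in the group values but are not reported singly here. Overexpression members that did not pass, MTRF1 and EIF2AK4 were chosen after their values were seen.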

Additional observations from a re-analysis of the deposited data

How the results depend on the processing

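For the depletion comparisons, the count of members called stayed at 0 under DESeq2, limma-voom, other size factors, no low-count filter, halved counts, fits of the compared libraries alone and each library left out. Leaving out CTRL replicate 3 and SG3 replicate 1, chosen after seeing the data, gave 1 call lower in SG1 against CTRL, and 1 higher and 3 lower in SG1 against SG3, beside the many calls over all genes given above. Over that setting and each library left out, the SG3 cytosolic median ran from -0.334 (without CTRL replicate 1) to -0.0702, and the mitochondrial median of SG1 against SG3 from -0.167 to -0.00589. FARS2 ran from -0.349 to 0.0144 in SG3 against CTRL and from -0.303 to 0.0152 in the mean contrast, and AIMP1 in SG1 from -0.00194 to 0.237. For KIF20A_OE against EV, members called lower were 8 under TMM scaling and under edgeR on recovered fragments, and 0 to 2 with a library left out. The cytosolic median was -0.0469 under TMM and -0.0498 under edgeR, and the mitochondrial median 0.690 and 0.694. With a library left out the mitochondrial median was 0.89 to 1.09. The cause of these changes was not tested. In the depletion dataset replicate numbers did not pair the libraries: correlations of deviations were -0.12 to 0.18 for the same number and -0.16 to 0.18 for different numbers. In the overexpression dataset same-number correlations were small, at 0.0142 to 0.0577, but lay above those of different numbers (-0.0498 to 0.0093). Pairing is therefore not excluded there. With the number as a replicate block, edgeR called 0 members in the depletion comparisons, and limma called 24 higher and 0 lower in KIF20A_OE against EV, where the call of FARS2 ended. For the members named by smallest p or by a call, most alternative values kept direction and side of the threshold. These were 250 of 276 in KIF20A_OE against EV, 117 of 119 in SG1 against CTRL, 118 of 119 in SG3 against CTRL and 134 of 136 in SG1 against SG3. The 276 values covered 23 called members, so gained calls were not counted. CARS1, GARS1, HARS1, HARS2 and TARS1 were outside that count, and TMM scaling called each of them lower. Limits are the 3 libraries per group, the wide spread within CTRL, the low counts of SARS2 and VARS2, and reads of overlapping genes.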

Other observations

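Genes that work beside the synthetases were followed from lists of charging partners, eIF2 kinases and their partners, amino acid transporters, and translation factors of both compartments. In the depletion comparisons edgeR called 0 of their members. In SG1 against CTRL, 3 of 12 mitochondrial translation factors had an unadjusted p under 0.05 in edgeR (4.59% of all genes), of which 2 were lower and 1 higher. TACO1, a translational activator of a mitochondrially encoded subunit, read 38.9, 36.6 and 34.9 CPM in CTRL and 30.7, 25.1 and 27.3 CPM in SG1 (log2 fold change -0.41 ± 0.16 SE, edgeR adjusted p = 0.913). TUFM, the mitochondrial elongation factor, read 160, 159 and 147 CPM in CTRL and 120, 130 and 120 CPM in SG1 (-0.33 ± 0.15). MTRF1, a mitochondrial release factor, read 6.42, 6.13 and 7.23 CPM in CTRL and 8.56, 8.65 and 9.32 CPM in SG1 (0.42 ± 0.20). None of the 3 overlapped between the groups, where 7.21% of all genes were lower and 4.96% higher without overlap. Of the 12 genes in that list 8 were positive (median 0.10), where 50.3% of all genes were negative.

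SLC7A11, the cystine transporter, read 121, 53.3 and 136 CPM in SG1 and 42.1, 53.9 and 69.6 CPM in SG3 (log2 difference 0.91 ± 0.27, edgeR unadjusted p = 0.00429, adjusted p = 0.861). Its SG1 replicate 2 lay inside the SG3 range. SLC3A2, the heavy chain it shares with other transporters, read 274, 297 and 316 CPM in CTRL and 219, 272 and 216 CPM in SG1 (-0.33 ± 0.17), without overlap. SLC1A4, a neutral amino acid transporter, had a log2 fold change of -0.47 ± 0.23 in SG1 against CTRL, and SLC38A1, a glutamine transporter, a log2 difference of 0.26 ± 0.13 in SG1 against SG3. In SG3 against CTRL, 11 of 14 transporters were negative (median -0.16), where 53.3% of all genes were negative.

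In KIF20A_OE against EV limma called 9 of 12 charging partners higher and 0 lower (median 0.64), where 46.2% of all genes were called higher and 23.4% lower (median 0.37). TARS3, a cytosolic threonyl enzyme akin to TARS1, rose from 4.28, 3.91 and 5.17 FPM to 42.5, 41.2 and 50.1 FPM (log2 fold change 3.06 ± 0.17, limma adjusted p = 1.4e-06). QRSL1, a subunit of the amidotransferase that makes mitochondrial glutaminyl-tRNA, rose from 12.9, 15.2 and 13.8 FPM to 41.6, 49.5 and 55.3 FPM (1.73 ± 0.16). Of 11 mitochondrial translation factors 6 were called higher and 0 lower (median 0.44), and of 17 cytosolic ones 9 and 0 (median 0.42), shares of higher calls and medians near those of all genes. TACO1 rose from 30.3, 32.1 and 32.6 FPM to 70.9, 84.4 and 84.3 FPM (1.30 ± 0.13), and GFM1, a mitochondrial elongation factor, from 36.2, 34.9 and 38.6 FPM to 78.3, 97.9 and 104 FPM (1.32 ± 0.14). EIF2S3, a subunit of eIF2, rose from 164, 182 and 158 FPM to 560, 655 and 680 FPM (1.90 ± 0.12). In each of these genes the libraries labelled KIF20A_OE lay above every EV library. EEF2, the elongation factor of the cytosolic ribosome, rose from 1142, 1128 and 876 FPM to 5157, 3758 and 5102 FPM (2.15 ± 0.16). Of 14 transporters 4 were called higher, a smaller share than among all genes, and 3 lower. SLC7A8, a transporter of large neutral amino acids, rose from 0.714, 0.918 and 0.647 FPM to 14.5, 20.0 and 12.5 FPM (3.22 ± 0.22), and SLC38A2, a glutamine transporter, fell from 804, 698 and 664 FPM to 215, 232 and 244 FPM (-1.64 ± 0.12).

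Of 7 eIF2 kinases and partners 1 was called higher and 2 lower by limma in KIF20A_OE against EV (median 0.31). Among all genes 46.2% were called higher and 23.4% lower (median 0.37). IMPACT, an inhibitor of GCN2 activation, rose from a mean of 37.0 FPM to 68.7, 71.9 and 69.9 FPM (log2 fold change 0.91 ± 0.12). EIF2S1, the subunit that the eIF2 kinases phosphorylate, fell from 163, 195 and 163 FPM to 114, 126 and 130 FPM (-0.49 ± 0.12), and EIF2AK4 (GCN2) from 123, 149 and 169 FPM to 95.9, 95.0 and 110 FPM (-0.54 ± 0.14). The libraries labelled KIF20A_OE differ from EV in the markers of the line, and the part of that difference in these values was not tested.

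Markers of other cell types were low in the depletion groups. Summed over each list, leukocyte markers were at 5.75 to 10.6 CPM, with CD3E and MS4A1 among those at 0, endothelial markers at 3.34 to 6.06 CPM and fibroblast markers at 32.0 to 60.8 CPM. In the overexpression dataset fibroblast markers summed to 27.6 to 102 FPM in EV and 80.7 to 101 FPM in the libraries labelled KIF20A_OE, and endothelial markers to 18.2 to 31.6 and 1.18 to 36.3 FPM.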
